A study of Bos taurus with 6 samples.

Results

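The genes described here encode the enzymes that lengthen fatty acids after fatty acid synthase has released palmitate, namely the elongases ELOVL1 to ELOVL7 and the partner enzymes HSD17B12, TECR and HACD3. They were measured by mRNA sequencing of intramuscular fat (IMF) in castrated and intact male Chinese Qinchuan cattle. All 10 genes of the set were among the 25444 genes of the count table, 9 of them under the current symbol and HACD3 under its older symbol PTPLAD1. The rule used gene names alone, and it was set with earlier results of these data known. The castrated males (steers) were weaned at 3 months, castrated by surgery at 6 months and slaughtered at 24 months. The intact males (bulls) had the same weaning age and diet and were also slaughtered at 24 months. IMF was dissected from the sternomandibularis muscle. For each group, equal amounts of RNA were mixed into 1 mRNA library. The series' design text counts 6 animals in each pool, whereas the labels of the libraries name 3. The animals shared a sire, so each value describes a single pool of related cattle.

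Elongation takes place at the endoplasmic reticulum as a cycle of 4 reactions that adds carbon from malonyl-CoA to an acyl-CoA. An elongase of the ELOVL family carries out the condensation, which limits the rate and sets which chains are used. The product is then reduced by HSD17B12, dehydrated by an enzyme of the HACD family and reduced again by TECR, and these steps serve every elongase. In fat tissue, ELOVL6 is known for turning newly made palmitate into stearate, the substrate from which much of the oleate of beef fat is formed by desaturation.

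The counts summed to 12677375 in steers and 9868415 in bulls. Library depth was removed with median-of-ratios size factors, and the log2 ratio given for each gene is that of the scaled counts in steers over bulls. Since no replicate exists, no test of castration was possible, and the 95% Clopper-Pearson intervals given with the ratios cover counting error only. A difference is called past 2-fold where the log2 ratio is over 1 in size. Among the 14540 genes with at least 10 counts over both libraries, 979 were past 2-fold higher in steers (6.73%) and 1679 past 2-fold lower (11.5%). Scaling by total counts moved all log2 ratios by -0.24, and scaling by adipocyte markers moved them by 0.43. The latter used 6 markers, namely ADIPOQ, PLIN1, PLIN4, FABP4, CIDEC and LIPE. The adipocyte markers CIDEA, LEP and AQP7, with log2 ratios of 2.75, 0.02 and -0.08, were not used for it, so the shift depends on that choice. Of all calls, 36.8% were higher in steers, compared with 24.1% under total-count and 67.4% under adipocyte-marker scaling.

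In the elongation set, ELOVL5, ELOVL6 and HSD17B12 were past 2-fold higher in steers, 3 of the 8 members with enough counts to compare, beside 6.73% of all genes compared. No member was past 2-fold lower, beside 11.5% of all genes compared. ELOVL6 was 3.90-fold higher, HSD17B12 3.33-fold and ELOVL5 3.21-fold. ELOVL1, ELOVL4, ELOVL7, TECR and HACD3 were not past 2-fold. ELOVL2 and ELOVL3 were at or near 0 counts in both libraries.

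**Figure D1:**
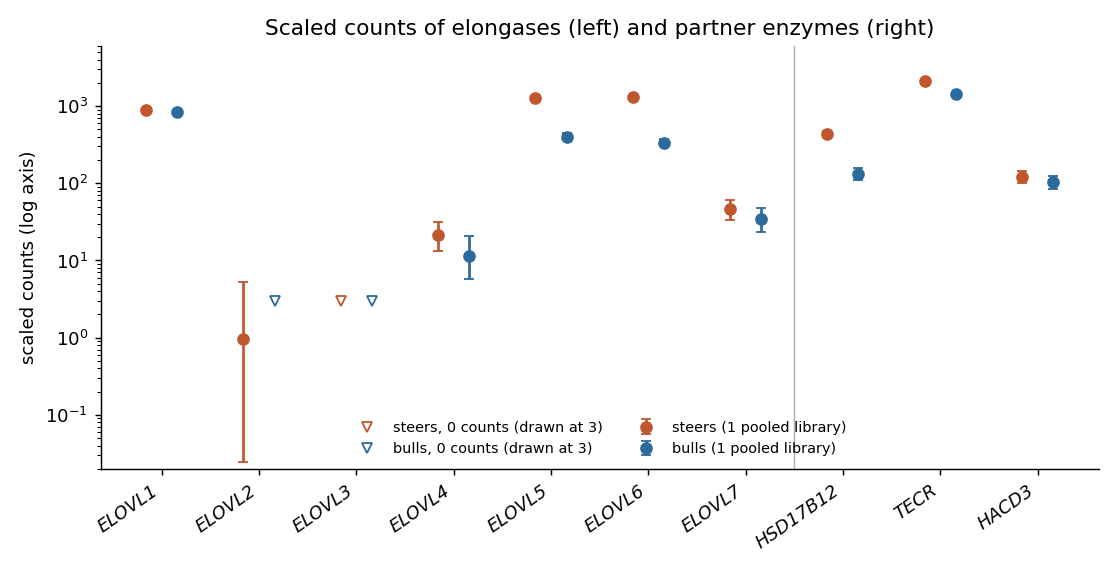
Scaled counts on a log axis for the 10 genes of the set, with 1 pooled library of steers and 1 of bulls. Points are scaled counts with 95% Poisson intervals, and open triangles stand for 0 counts, drawn at the floor of 3. ELOVL5, ELOVL6 and HSD17B12 show separated points, at 1287, 1311 and 437 in steers against 402, 336 and 131 in bulls.

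ELOVL6, the elongase of palmitate and other saturated and monounsaturated chains, had 1368 counts in steers and 322 in bulls. Its log2 ratio was 1.96 (95% interval 1.79 to 2.14), at percentile 97.6 of the genes compared. This was the highest ratio among the 8 members compared. Adding an assumed spread between pools to the counting error (a coefficient of variation of 0.2, not measured here) widened the interval to 1.15 to 2.78, with a lower end past 2-fold at this assumed value.

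ELOVL5, which elongates polyunsaturated fatty acids made from linoleic and linolenic acid, had 1343 counts in steers and 385 in bulls. The log2 ratio of ELOVL5 was 1.68 (1.52 to 1.85), at percentile 97.0. With the assumed variation between pools its interval ran from 0.86 to 2.497, and its lower end was below 2-fold. ELOVL2, another elongase of polyunsaturated chains, had 1 count in steers and 0 in bulls. In bulls a count of 0 allows a level of up to 0.304 CPM (counts scaled to library size, here for the floor of 3 counts), so a difference in ELOVL2 was not detectable at this depth.

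ELOVL1, which makes saturated and monounsaturated very long chains, had 923 counts in steers and 793 in bulls. Its log2 ratio was 0.10 (-0.04 to 0.24), close to the median of 0.01 over all genes compared, and it was -0.14 with total-count scaling. Thus ELOVL1, unlike ELOVL5 and ELOVL6, was measured at similar counts in the pools, and its sign depended on the scaling. ELOVL7, an elongase of saturated chains, had 48 and 33 counts and a log2 ratio of 0.42 (-0.25 to 1.10). For ELOVL4, known for the very long chains of retina, skin and brain, 22 and 11 counts gave a log2 ratio of 0.88 (-0.23 to 2.07). At these counts neither an equal level nor a 2-fold difference could be told from the measured values of ELOVL4 and ELOVL7. ELOVL3, known from brown fat, liver and skin, had 0 counts in both libraries, which allows up to 0.237 CPM in steers and 0.304 in bulls.

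Among the partner enzymes, HSD17B12, the ketoacyl-CoA reductase of the cycle, had 456 counts in steers and 126 in bulls. HSD17B12 had a log2 ratio of 1.73 (1.45 to 2.03), at percentile 97.1, and 0.88 to 2.58 with the assumed variation between pools. TECR, the enoyl-CoA reductase that closes the cycle, had 2181 and 1367 counts and a log2 ratio of 0.55 (0.45 to 0.65), at percentile 83.9. With the assumed variation between pools the interval of TECR included 0, from -0.25 to 1.36. HACD3, a member of the dehydratase family, had 125 and 99 counts and a log2 ratio of 0.21 (-0.18 to 0.61), and -0.02 with total-count scaling. Of these 3 partner enzymes, HSD17B12 thus differed the most between the pools.

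The remaining HACD genes were not higher in steers under the main scaling. HACD2, listed as PTPLB, had 311 and 315 counts and a log2 ratio of -0.14 (-0.37 to 0.09), which turned to 0.29 when scaled by adipocyte markers. The gene listed as PTPLA, which the RefSeq gene table does not pair with a current symbol, had 74 and 76 counts and a log2 ratio of -0.16 (-0.64 to 0.32), or 0.27 with the same markers. HACD4, listed as PTPLAD2, had 57 and 143 counts. It was past 2-fold lower in steers, at -1.45 (-1.92 to -0.997). Of the 3 compared, HACD4 was the only one past 2-fold, beside 11.5% of all genes compared. TECRL, a relative of TECR, had 0 counts in steers and 1 in bulls. The log2 ratios of the HACD family, HACD3 included, thus ran from -1.45 to 0.21 under the main scaling, all below that of HSD17B12.

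**Figure D2:**
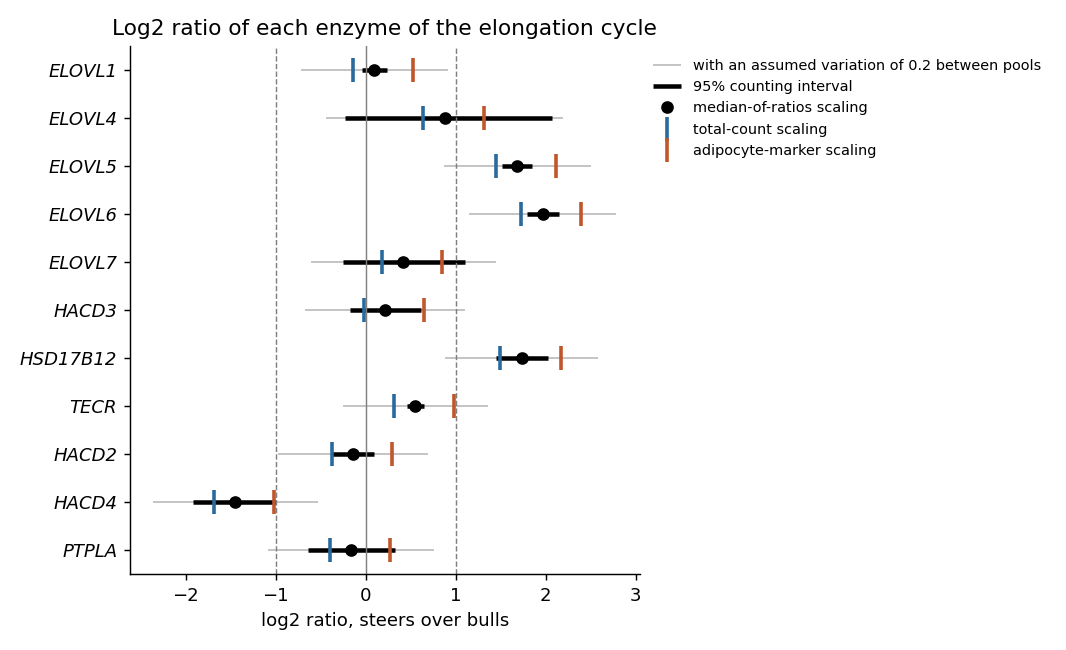
Log2 ratio of steers over bulls for the 8 members compared and 3 further genes of the cycle. Black points and bars give the ratio and its 95% counting interval, grey lines add an assumed coefficient of variation of 0.2 between pools, and coloured ticks give the ratio under total-count and adipocyte-marker scaling. ELOVL6, HSD17B12 and ELOVL5 lie right of the dashed 2-fold line under each scaling drawn, and HACD4 lies left of it.

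Summed over the 7 elongases, the counts were 3705 in steers against 1544 in bulls, for a log2 ratio of 1.14 (1.05 to 1.23), or 0.90 with total-count scaling. Most of this difference lay in ELOVL5 and ELOVL6. Their sum was 2711 against 707, for a log2 ratio of 1.82 (1.70 to 1.94). The other 5 elongases had 994 and 837 counts and a log2 ratio of 0.13 (-0.01 to 0.26), or -0.11 with total-count scaling. This split was made after the values had been seen. The 3 partner enzymes summed to 2762 and 1592 counts, a log2 ratio of 0.67 (0.58 to 0.76), of which TECR contributed the largest part.

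The makeup of the elongase counts within each library does not depend on how the libraries are scaled. Counts are not corrected for transcript length here, so a share can be compared between libraries but not between genes. ELOVL1 took 24.9% of the elongase counts in steers (exact 95% interval 23.5 to 26.3) and 51.4% in bulls (48.8 to 53.9). ELOVL6 took 36.9% in steers (35.4 to 38.5) and 20.9% in bulls (18.9 to 23.0). For ELOVL5 the shares were 36.2% (34.7 to 37.8) and 24.9% (22.8 to 27.2). The share of ELOVL1 was thus lower in steers, and those of ELOVL5 and ELOVL6 were higher, with intervals that did not overlap. Shares of ELOVL7 were 1.30% in steers (0.957 to 1.71) and 2.14% in bulls (1.48 to 2.99), and those of ELOVL4 were 0.594% and 0.712%. Among the partner enzymes, the share of HSD17B12 was 16.5% in steers (15.1 to 17.9) and 7.91% in bulls (6.64 to 9.35).

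**Figure D3:**
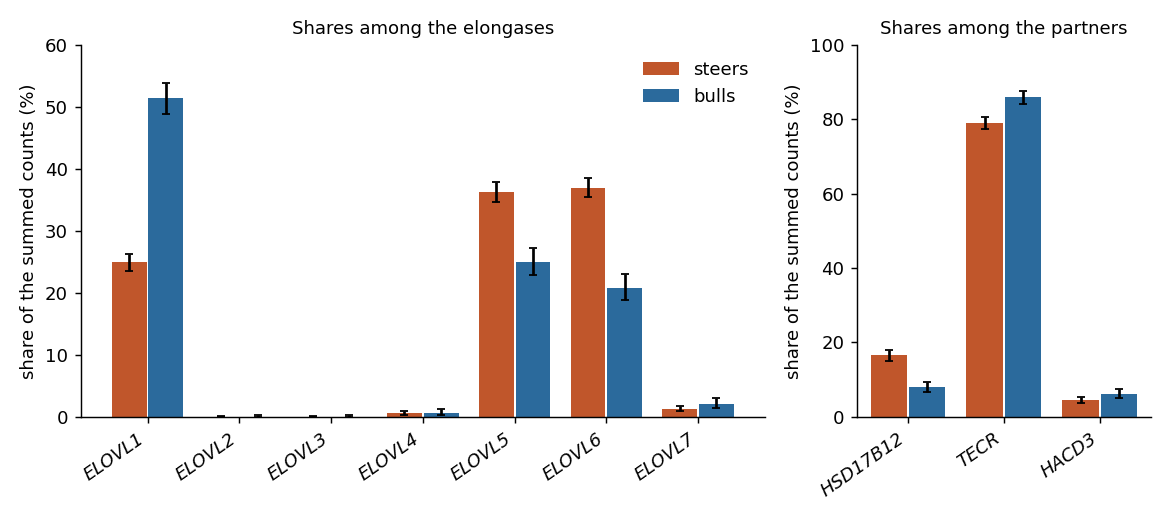
Share of the summed counts, in percent, of each elongase (left) and of each partner enzyme (right) in the pooled libraries of steers and bulls. Bars are shares with exact 95% binomial intervals. ELOVL1 holds 51.4% of elongase counts in bulls and 24.9% in steers, and the share of HSD17B12 is 7.91% in bulls and 16.5% in steers.

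Differences between members were compared within libraries, as the log2 ratio of one gene minus that of another, which is free of the scaling. Of 28 pairs among the 8 members compared, 14 had a 95% counting interval that excluded 0, with no adjustment over the pairs. ELOVL6 and HSD17B12 differed by 0.23 (-0.12 to 0.57), and ELOVL5 and HSD17B12 by -0.05 (-0.39 to 0.28), so no difference was found beyond counting error. The 3.00 ELOVL6 counts per HSD17B12 count in steers stood against 2.56 in bulls. ELOVL5 was below ELOVL6 by 0.28 (interval of ELOVL5 minus ELOVL6 -0.53 to -0.04). ELOVL6 exceeded TECR by 1.41 (1.21 to 1.62), HACD3 by 1.75 (1.31 to 2.18) and ELOVL7 by 1.55 (0.83 to 2.24). In terms of counts, there were 0.627 ELOVL6 counts for each TECR count in steers and 0.236 in bulls. HSD17B12 exceeded TECR by 1.18 (0.88 to 1.49) and HACD3 by 1.52 (1.02 to 2.01). ELOVL1 lay below ELOVL6, with a difference of -1.87 (-2.10 to -1.64), and below TECR, with one of -0.45 (-0.63 to -0.28). All 7 pairs with ELOVL4 included 0, as its counts were few.

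**Figure D4:**
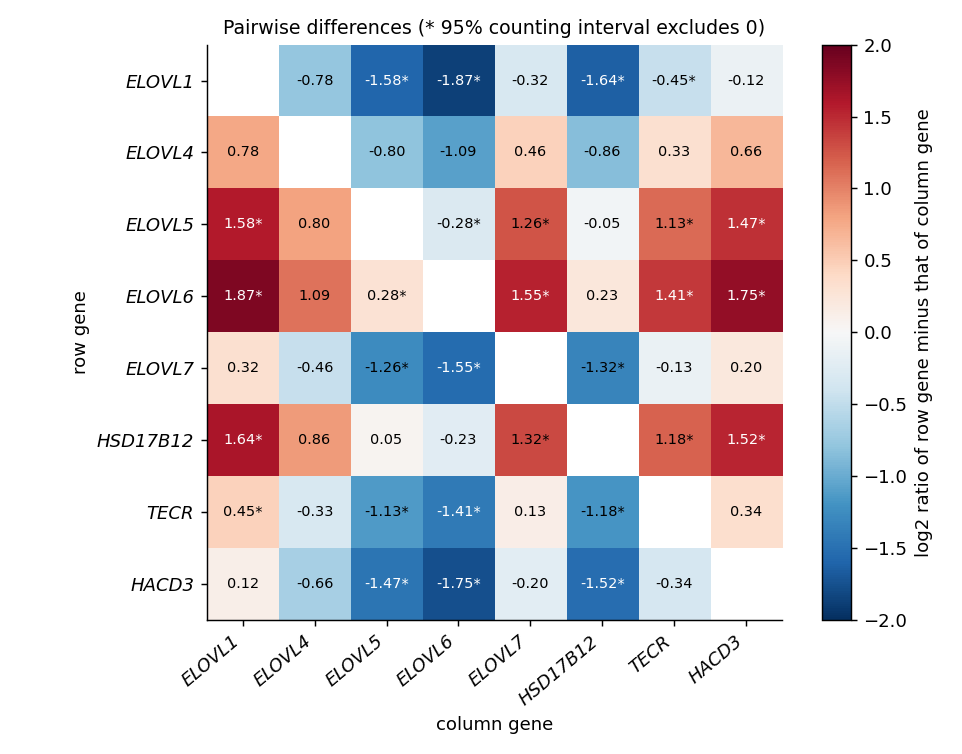
Difference in log2 ratio (steers over bulls) between each row gene and each column gene, for the 8 members compared. Red stands for a higher ratio of the row gene, and an asterisk marks a 95% counting interval that excludes 0. The rows of ELOVL5, ELOVL6 and HSD17B12 are red against ELOVL1, ELOVL7, TECR and HACD3, with values from 1.13 to 1.87.

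Of the genes that supply malonyl-CoA and palmitate to elongation, ACSS2, ACACA and FASN had larger log2 ratios than any elongase compared. Of 7 such genes, 4 were past 2-fold higher in steers (ACSS2, SLC25A1, ACACA and FASN), beside 6.73% of all genes compared. The median log2 ratio was 1.97 over the list and 0.01 over all genes compared. ACACB, the acetyl-CoA carboxylase linked to the control of fatty acid oxidation, was past 2-fold lower at -1.03 (-1.46 to -0.61), with 72 and 135 counts. It was the 1 gene of 7 that was lower, beside 11.5% of all genes compared. ACLY, at 0.71 (0.60 to 0.83), and ME1, at 0.72 (0.45 to 0.99), were not past 2-fold and lay below ELOVL5 and ELOVL6. Both are named after their values were seen. ELOVL6 lay below FASN, the synthase that makes palmitate, by 1.33 on the log2 scale (interval of ELOVL6 minus FASN -1.51 to -1.15). Against ACACA, which makes the malonyl-CoA, the difference was -1.25 (-1.46 to -1.04). HSD17B12 and ELOVL5 also lay below FASN, with differences of -1.56 (-1.86 to -1.27) and -1.62 (-1.79 to -1.45). SLC25A1, the citrate carrier of mitochondria, had a log2 ratio of 1.97 (1.84 to 2.09), which was near that of ELOVL6. ACSS2, the cytosolic acetyl-CoA synthetase that activates acetate, the main carbon source for fat synthesis in ruminants, stood highest on the list at 4.03 (3.91 to 4.15).

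Of 5 desaturase genes compared, 0 were past 2-fold higher, beside 6.73% of all genes compared, and 0 were lower, beside 11.5%. Their median log2 ratio was 0.32. SCD, a further desaturase of the list, was not matched to a row and was not analysed here. FADS2, which opens the polyunsaturated pathway that ELOVL5 continues, had 367 and 183 counts and a log2 ratio of 0.88 (0.62 to 1.15). FADS3, a relative of FADS2, had 289 and 213 counts and a ratio of 0.32 (0.06 to 0.58). FADS1, the desaturase that acts after ELOVL5, had 131 and 68 counts and a ratio of 0.82 (0.39 to 1.27). The remaining desaturases were below 0, FADS6 at -0.86 (-1.27 to -0.46) with 85 and 142 counts, or -1.10 with total-count scaling, and SCD5 at -0.49 (-1.08 to 0.10) with 45 and 58 counts. FADS1, FADS6 and SCD5 are named after their values were seen. ELOVL5 exceeded FADS2 by 0.80 (0.49 to 1.11) and FADS1 by 0.86 (0.38 to 1.32). Within the polyunsaturated pathway, ELOVL5 thus differed between these pools by more than FADS1 or FADS2 when counting error alone is considered. With the assumed variation between pools the intervals overlapped. They ran from 0.86 to 2.497 for ELOVL5, from 0.04 to 1.72 for FADS2 and from -0.08 to 1.73 for FADS1.

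Among 12 regulators of lipogenesis, INSIG1 and THRSP were past 2-fold higher in steers, beside 6.73% of all genes compared, and none was lower, beside 11.5%. The median was 0.27. INSIG1, which holds the sterol-sensing complex in the endoplasmic reticulum and is itself a target of it, had 1237 and 145 counts and a log2 ratio of 2.97 (2.72 to 3.23). THRSP, a nuclear protein tied to lipogenic expression, had 5537 and 1328 counts and a ratio of 1.94 (1.85 to 2.03), close to that of ELOVL6. SREBF1, whose product is a known activator of ELOVL6 and other lipogenic genes, had 1999 and 1548 counts and a ratio of 0.25 (0.15 to 0.34). ELOVL6 exceeded SREBF1 by 1.72 (1.52 to 1.92), and HSD17B12 exceeded it by 1.49 (1.18 to 1.80). SREBF1 thus lay below ELOVL5, ELOVL6 and HSD17B12 when counting error alone is considered, and the activity of its product was not measured.

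Further lists covered ceramide and sphingolipid synthesis, peroxisomal import and oxidation, and acyl chains in phospholipids. Their medians lay between -0.11 and 0.10, beside 0.01 over all genes compared. In ceramide and sphingolipid synthesis, 1 of 13 genes compared was past 2-fold higher, beside 6.73% of all genes compared, and 0 were lower, beside 11.5%. The log2 ratios ran from -0.80 for UGCG, named after its value was seen, to 1.56, with a median of 0.10. CERS2, the ceramide synthase of very long chains and the most counted gene of that list, had 2440 and 1614 counts and a ratio of 0.47 (0.38 to 0.57). DEGS1, the dihydroceramide desaturase, was at 0.63 (0.49 to 0.77), with 1113 and 660 counts. SGMS2, a sphingomyelin synthase and the gene past 2-fold, had 16 and 5 counts and a ratio of 1.56 (0.04 to 3.36). Peroxisomal import and oxidation had 0 of 11 genes past 2-fold in either direction, beside 6.73% higher and 11.5% lower among all genes compared. The log2 ratios of this list ran from -0.50 to 0.78, with a median of -0.11. Its highest value was that of ABCD4, which was listed here although it is not an established peroxisomal importer. EHHADH was at 0.66 (0.29 to 1.04), and both are named after their values were seen. There ACAA1, the thiolase of the pathway, was at -0.34 (-0.46 to -0.22) and SCP2, a sterol carrier with thiolase activity, at -0.11 (-0.24 to 0.01). Both of these peroxisomal values turned positive when scaled by adipocyte markers, to 0.09 and 0.32. Of 9 genes that place or release acyl chains in phospholipids, LPCAT2 alone was past 2-fold lower at -1.32 (-1.82 to -0.85). That is 1 of 9 beside 11.5% of all genes compared, and none was higher, beside 6.73%. The most counted of these acyltransferase genes, MBOAT1 and LPCAT1, were at -0.09 (-0.25 to 0.07), positive with adipocyte markers, and at 0.42 (0.23 to 0.61).

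**Figure D5:**
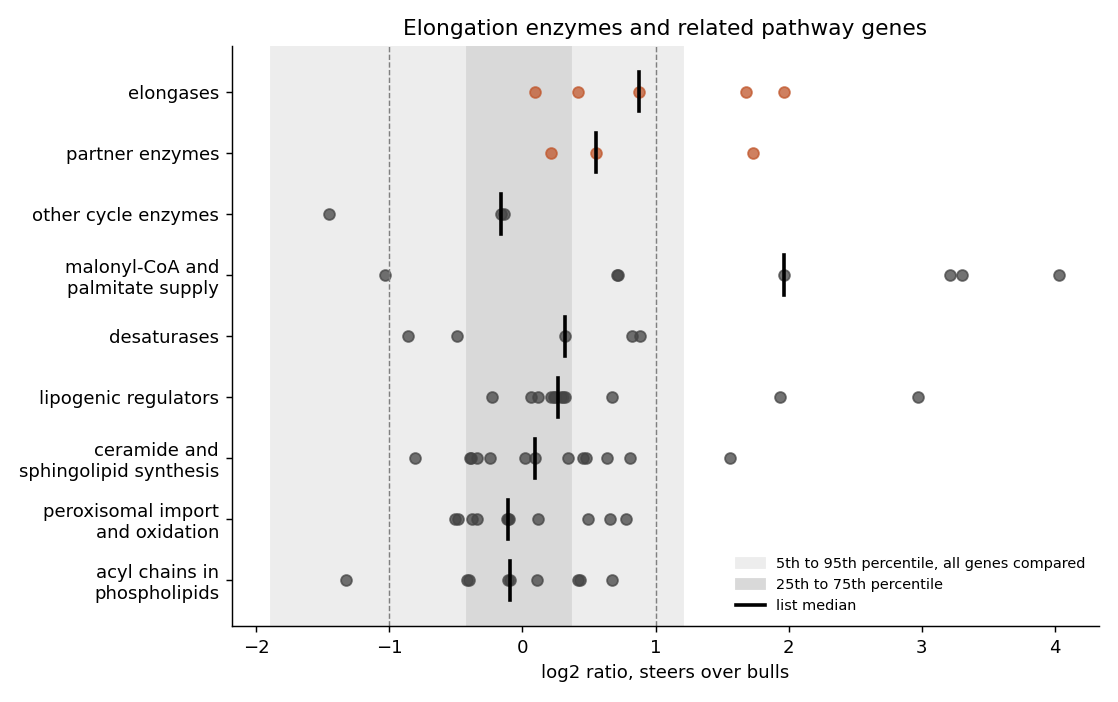
Log2 ratio of steers over bulls for the elongation set (orange) and related pathway lists (grey), 1 point per gene compared, with list medians as black lines. Grey bands give the 5th to 95th and 25th to 75th percentiles of all 14540 genes compared, and dashed lines mark 2-fold. ELOVL5, ELOVL6 and HSD17B12 lie beyond the 95th percentile of 1.21, and none of the desaturases drawn does.

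Markers of several cell types differed between the pools, and their counts past 2-fold stand beside 6.73% higher and 11.5% lower among all genes compared. Adipocyte markers were abundant in both, with 2 of 9 past 2-fold (1 in each direction), and 2830 CPM in steers against 4023 in bulls. Their log2 ratios ran from -1.06 for FABP4 to 2.75 for CIDEA, with 3 above 0, 6 below 0 and a median of -0.08. ADIPOQ was at -0.68 (-0.74 to -0.63) and PLIN1 at -0.38 (-0.44 to -0.32), which turned positive with adipocyte-marker scaling, while CIDEC was at 0.28 (0.24 to 0.33). CIDEA, CIDEC and FABP4 are named after their values were seen. Skeletal muscle markers were also abundant, at 3003 and 5938 CPM, with 4 of 14 past 2-fold lower and 1 higher. Their median was -0.66, with 5 above 0 and 9 below 0. The lower ones were MYL2 (-2.27), MYH7 (-2.23), TNNT1 (-2.01) and DES (-1.26), and the higher one was MYH1 (1.15). These muscle genes are named after their values were seen. Of myeloid markers, 9 of 11 were past 2-fold lower in steers (2623 against 8601 CPM), CD74 at -1.84 (-1.86 to -1.81) with the most counts. The CPM were 10.4 and 93.3 for T lymphocyte markers, with 9 of 9 compared past 2-fold lower. CD3E, the most counted of them, was at -2.98 (-3.53 to -2.46). B lymphocyte markers had 2.05 and 16.3 CPM, with 3 of 4 lower, CD22 at -2.40 (-3.35 to -1.56) and CD79B and MS4A1 at 0 in both.

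Of matrix and fibroblast markers, 5 of 10 were past 2-fold higher and 0 lower (126370 against 73190 CPM). This count and those of the further markers again stand beside 6.73% higher and 11.5% lower among all genes compared. COL3A1, the most counted, was at 1.27 (1.26 to 1.28), while DCN was at 0.04 (0.02 to 0.05), negative with total-count scaling, and PDGFRA at -0.48 (-0.57 to -0.40), both named after their values were seen. Endothelial markers had 0 of 9 past 2-fold in either direction, at 831 and 1016 CPM. Nerve and myelin markers had 3 of 5 higher (165 and 141 CPM), S100B being the most counted at 0.35 (0.24 to 0.45). Epithelial and sebocyte markers had 3 of 4 higher (21.1 and 4.46), KRT8 at 4.28 (3.20 to 5.62), and KRT14, MC5R and AWAT1 at 0 in both. Erythroid markers were few, at 3.39 and 0.811 CPM, with 2 of 2 higher, HBA with 16 and 6 counts and HBB with 21 and 1, and ALAS2 at 0. In such bulk tissue, more cells of a type and more RNA per cell cannot be told apart. The part of these cell types in the values of the elongation genes was not tested. Scaling by adipocyte markers put ELOVL6, HSD17B12 and ELOVL5 at 2.39, 2.16 and 2.11. That scaling adds the same 0.43 to every log2 ratio, so it could not have brought them below 2-fold.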

How the data were processed

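The mRNA values are raw counts per gene as deposited. The authors cleaned Ion Proton reads of adaptors and poor bases and mapped them to a bovine assembly with MapSplice. The submitters' processing notes name BWA and, for these cattle reads, a human build, with no role for either. How reads were assigned to genes, and whether strand was used, is not given in the sources used here. Groups followed the treatment label, with 1 mRNA library each, and gene names were matched through a RefSeq gene table (ARS-UCD2.0 assembly). That table also gave which genes neighbour the members. The small RNA counts and sequences were not used here, and no coordinates are printed.

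Median-of-ratios size factors (1.04 in steers and 0.959 in bulls) came from 15587 genes with a count in both libraries. Ratios, Clopper-Pearson and conditional exact intervals were computed with numpy 2.4.6 and scipy 1.17.1, and TMM factors with edgeR 4.0.16 under R 4.3.3. The intervals take each count as independent and hold no spread other than counting error. Since PCR copies of a molecule can be counted more than once, they can be too narrow even for that. A prior of 0.5 counts was added where a count was 0. The computation was tested on simulated counts. With 1 library per group, no model across replicates could be fitted and no p is given.

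The members, gene lists and alternatives were chosen with earlier results of these data known. Genes named are all members, the other cycle enzymes, list genes past 2-fold, the 2 most counted genes of each pathway list, ADIPOQ, PLIN1, and the most counted gene of marker lists with a median log2 ratio over 1 in size. Genes most like a member in pattern were not sought, since 2 libraries give 1 ratio per gene. Pairs of members with pathway genes were chosen after the counts had been seen.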

Additional observations from a re-analysis of the deposited data

How the results depend on the processing

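ELOVL5, ELOVL6 and HSD17B12 were past 2-fold higher in steers under every setting tried. The count filters leave their ratios as they are and the 1.5-fold limit is looser, so these settings could not change the calls. The setting with an assumed coefficient of variation asked for a ratio past 2-fold and an interval that excludes 0. It did not ask for a lower end past 2-fold, and the lower ends of ELOVL5 and HSD17B12 were 0.86 and 0.88. The count of members past 2-fold higher was 4 with adipocyte-marker scaling, where ELOVL4 was added, beside 15.4% of all genes compared. With genes of at least 1 count it was 4, where ELOVL2 was added on 1 count against 0, beside 13.1%. Past a 1.5-fold limit the members higher numbered 4, ELOVL4 included, beside 15.0%. In the other settings the count was 3. With total-count scaling the log2 ratio of summed elongase counts was 0.90, the median of the partner enzymes was 0.31, and 1 desaturase and 1 ceramide gene were past 2-fold lower. With adipocyte-marker scaling (6 markers) these values were 1.57 and 0.98, the genes past 2-fold higher numbered 2 desaturases, 3 of ceramide synthesis, 2 of peroxisomes and 1 of phospholipids, and 0 supply and 0 phospholipid genes were lower. With genes of at least 1 count, 2 other cycle enzymes and 1 ceramide gene were lower, and 2 ceramide genes and 1 phospholipid gene were higher. Ceramide genes past 2-fold higher numbered 0 with at least 10 counts in each library, with a prior of 5 counts, with the whole counting interval past 2-fold and with an assumed coefficient of variation of 0.2. Supply genes lower numbered 0 with the prior of 5 and with the whole interval past 2-fold, where 0 other cycle enzymes and 0 phospholipid genes were lower. With a 1.5-fold limit, 2 desaturases, 3 ceramide genes, 2 peroxisomal genes and 1 phospholipid gene were higher, and 1 desaturase and 1 ceramide gene lower. Beside these list counts, the calls higher and lower over all genes compared were 979 and 1679 in the main setting (6.73% and 11.5%). They were 705 and 2221 with total counts (4.85% and 15.3%), and 2238 and 1082 with adipocyte markers (15.4% and 7.44%). The filters gave 2317 and 2912 with at least 1 count (13.1% and 16.4%), and 475 and 1006 with at least 10 in each library (3.71% and 7.87%). The limits gave 2180 and 2818 at 1.5-fold (15.0% and 19.4%), and 376 and 772 with the whole interval (2.59% and 5.31%). The shares were 4.9% and 9.5% with the prior of 5, and 5.13% and 9.5% with the assumed coefficient of variation. TMM and upper-quartile scaling moved all log2 ratios by -0.02 and 0.02. Apart from the scalings and limits themselves, the cause of these shifts was not tested. No paired analysis was possible because each mRNA group has 1 library and its column carries no replicate number. With 1 pool per group, the spread between animals is unknown, and depth limits ELOVL2, ELOVL3, ELOVL4 and ELOVL7.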

Other observations

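The genes next to the members on the ARS-UCD2.0 assembly had values of their own in these libraries. HSD17B12 lies between TTC17, at a log2 ratio of 0.13 (-0.07 to 0.33), and ALKBH3, at -0.04 (-0.35 to 0.28), both below its own 1.73, and the sign of both depended on the scaling. ELOVL5 has BOLA-DQA2, a gene of MHC class II, on one side, which was past 2-fold lower in steers (348 against 2025 counts) at -2.66 (-2.83 to -2.50). GCM1, on the other side of ELOVL5, had 0 counts in both libraries, as did EGF beside ELOVL6. TECR lies between NDUFB7, a subunit of respiratory complex I, at 0.50 (0.28 to 0.73), and the chaperone gene DNAJB1 at 0.17 (0.07 to 0.28), whose sign turned with total-count scaling, so that NDUFB7 was near the 0.55 of TECR. The cell division gene CDC20, next to ELOVL1, was at -1.74 (-2.24 to -1.26). One gene that overlaps ELOVL1 there, LOC100335822, had 3 counts in each library. These neighbours were chosen after the members' values were seen, and the assembly is not the one to which the reads were aligned.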
